A study of Mus musculus with 9 samples.

Results

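The EGR and AP-1 genes are a set of 10 transcription factor genes, taken by symbol from the 14771 genes of the deposited table: Egr1, Egr2 and Egr3 of the EGR family, Fos, Fosb, Fosl1 and Fosl2 of the Fos family, and Jun, Junb and Jund of the Jun family. All 10 were present, and all 10 were among the 11281 genes with counts enough to test. They were chosen by name with their log2 fold changes of LPS against CON and SUR against LPS in view, as genes of which several were higher with suramin than with LPS alone. Their differences between the groups are therefore descriptions. No p-values are printed for them, and a call among them is not independent support. RNA from MH-S cells, an immortalised mouse line of alveolar macrophages, was sequenced in 9 libraries, 3 per group. CON cells received culture medium. LPS cells received 1 µg/ml lipopolysaccharide (LPS), the bacterial membrane component sensed by the receptor TLR4, for 4 h. The group labelled SUR was read from the treatment protocol as 200 µM suramin, a polyanionic drug, together with 1 µg/ml LPS for 4 h. The sample labels name suramin without LPS, and no group had suramin alone, so an effect of suramin without LPS cannot be told apart here. All libraries came from 1 cell line, and no label says that replicates were separate cultures, so the p-values below reflect the spread among these libraries only, and that spread may be technical.

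EGR proteins are zinc finger factors that bind GC-rich sites, and the NAB proteins act as their corepressors. Fos and Jun proteins are bZIP factors that pair to form the AP-1 complex. Fos proteins need a Jun partner, whereas Jun proteins can also pair with each other. Most of these genes are immediate-early genes: growth factor or LPS signals raise their transcription within minutes, through MAP kinases and factors such as SRF with its TCF partners, CREB and NF-kappaB, and the transcripts are short-lived. In macrophages AP-1 takes part in the transcription of cytokine and protease genes.

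Library totals ran from 15729398 to 16675243 counts. Levels are given as CPM, counts relative to the TMM-scaled library size, and differences as log2 fold changes ± standard error (SE) from a fit across all tested genes; "called" means an adjusted p under 0.05 in edgeR's quasi-likelihood test (adjusted by the Benjamini-Hochberg method). Counts of the 10 genes ran from 44 (Fosl1 in CON 1) to 15641 (Junb in LPS 1). Macrophage genes (Cd68, Csf1r, Adgre1, Lyz2 and others, 15 of 18 listed genes in the table) summed to between 5051 and 8648 CPM. The alveolar macrophage markers Marco, Chil3 and Siglecf were at or near 0, with highest values of 0.0591, 0.0681 and 0.179 CPM. Pparg reached 0.576 CPM at most. Not all such genes were near 0. On the same list, Fabp4 ran from 3.16 to 5.11 CPM, Itgax from 7.03 to 13.3 CPM and Mrc1 from 70.1 to 191 CPM. Summed markers of epithelial cells (3 of 8 listed genes in the table) stayed at or under 0.548 CPM, those of fibroblasts and endothelium (6 of 8) at or under 1.27 CPM, and those of lymphocytes and neutrophils (4 of 9) at or under 0.296 CPM. In bulk RNA, fewer cells of a kind and less RNA per cell cannot be told apart.

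Egr1 was higher in LPS than in CON and higher again in SUR. Egr1 (gene ID 13653, chromosome 18, 34861207 to 34864956, plus strand) encodes a zinc finger factor induced by ERK signalling; positions are RefSeq's on GRCm38, and exon numbers are those of the principal GENCODE M21 transcripts, 2 or 3 for Egr1 and 2 for Egr2 and Egr3. In libraries 1, 2 and 3 it stood at 12.7, 10.2 and 14.4 CPM in CON, at 55.7, 33.7 and 41.3 CPM in LPS, and at 93.8, 62.4 and 99.0 CPM in SUR. Every LPS library lay above every CON library, and every SUR library above every LPS library. The log2 fold change was 1.81 ± 0.24 for LPS against CON and 0.96 ± 0.22 for SUR against LPS, a ratio of 1.95. Within numbers (SUR 1 against LPS 1, and so on) the step from LPS to SUR was 0.75, 0.89 and 1.26 on the log2 scale. That call was lost without LPS 2 (0.81), LPS 3 (0.93) or SUR 3 (0.84), with the direction kept. SUR against CON came to 2.77 ± 0.24, or 6.82 times.

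Egr2 and Egr3 were high in both LPS groups and did not share the step of Egr1 from LPS to SUR. Egr2 (13654, chromosome 10, 67534469 to 67542188, plus strand) is a relative of Egr1 with a known role in macrophage and T cell activation. It had the largest difference among the 10 genes between LPS and CON, 3.42 ± 0.33 or 10.7 times, from 10.9, 5.36 and 5.24 CPM in CON to 58.7, 75.1 and 95.8 CPM in LPS. The CON 1 library, at 10.9 CPM, was higher than the other two, and the within-number differences ran from 2.42 for number 1 to 4.16 for number 3. In SUR the values were 55.5, 51.5 and 84.3 CPM, which overlapped LPS, with a log2 fold change of -0.26 ± 0.29. Egr3 (13655, chromosome 14, 70077317 to 70082613, plus strand) stood at 14.2, 22.8 and 23.9 CPM in CON, 62.3, 76.7 and 79.0 CPM in LPS and 56.9, 56.9 and 63.1 CPM in SUR. SUR and LPS overlapped by the pair of SUR 3 and LPS 1, and the difference was -0.30 ± 0.17, called when the replicate number was a block. Against CON, SUR was higher by 3.15 ± 0.33 for Egr2 and 1.54 ± 0.18 for Egr3.

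Upstream sequences came from RefSeq (GRCm38.p6), which gave windows for 7 of the 10 genes (all but Egr1, Egr3 and Fosl1). A total of 7 motifs, chosen with these promoters at hand, were searched on both strands in the 250 bases before each start, and a match is a description, not a bound site. A CArG box, the letters that SRF binds, was found in 1.47% of 32851 windows and, of the 7 genes, in Egr2, which has 5 windows. A CArG box more than 250 bases before a start would be missed, and Egr1, Egr3 and Fosl1 were not searched. The 30 bases at chr10:67537787-67537816 (plus strand) hold a CArG box of Egr2. They are shown because Egr2 had the largest LPS difference and was the searched member with these letters. Capitals mark the box, which begins 72, 73 or 133 bases before different starts of the 5 annotated. Another CArG box, CCTTTTTTGG, begins 72 bases before a further one of these starts.
Egr2: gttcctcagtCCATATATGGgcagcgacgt
The letters TGACG, a core of CREB sites, were in 17.8% of windows and in Egr2, Fos, Fosb and Junb. NF-kappaB sites were in 3.90% of windows and in Fos, Fosb and Fosl2. No member window held TGACTCA, the usual AP-1 site, found in 4.46% of windows, which says only that these letters are not in these windows.

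**Figure D1:**
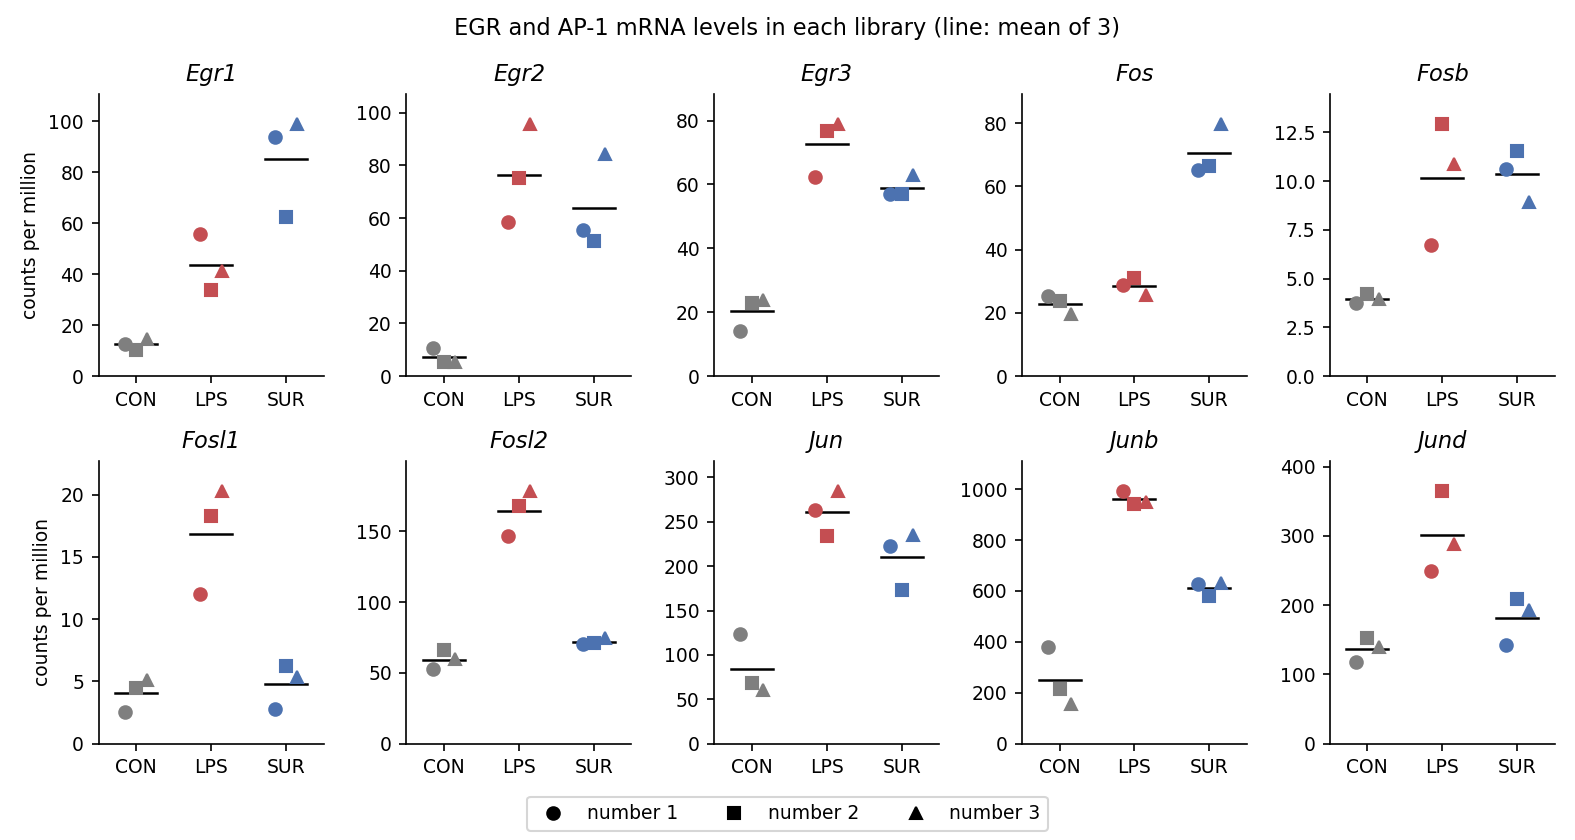
Level of each of the 10 genes in CPM (axes from 0, with a range for each gene) in each of the 9 libraries, by group; points are libraries, with a shape for each replicate number, and lines are means of 3. Fos and Egr1 have their highest libraries in SUR, whereas the other genes have theirs in LPS. Of these, Fosl1, Fosl2, Junb and Jund have every LPS library above every SUR library.

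Within the Fos family the members went different ways with suramin: Fos was higher in SUR than in LPS, Fosl1 and Fosl2 were lower, and Fosb had no clear direction. Fos (14281, chromosome 12, 85473890 to 85477274, plus strand) encodes the founding Fos protein, c-Fos, and like the other Fos genes has 4 exons. It stood at 25.3, 23.7 and 19.7 CPM in CON, 28.9, 30.9 and 25.5 CPM in LPS, and 65.1, 66.5 and 79.8 CPM in SUR. LPS and CON lay close together, with a log2 fold change of 0.31 ± 0.12 that was not called (0.39 without the libraries numbered 1, which was called, with or without the block). Their CPM did not overlap by a small margin, but their FPKM, the deposited values per transcript length, did: 12.98 to 15.57 in LPS and 11.12 to 14.25 in CON. The step from LPS to SUR was 1.31 ± 0.12, or 2.48 times, and the within-number differences were 1.17, 1.10 and 1.64. This call held in all 20 alternatives, with values from 1.21 to 1.44. The alternatives reuse the libraries that chose the gene, so they show only how far the processing matters. At this single time of 4 h its LPS libraries were at most 30.9 CPM, and its SUR libraries at least 65.1 CPM.

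The 250 bases before the Fos start (chr12:85473640-85473889, plus strand) are shown because Fos was the gene with the largest step from LPS to SUR. Capitals mark, in order, an NF-kappaB site read on the other strand, both TGACG cores and TATAAA, the TATA box letters 33 bases before the start (in 12.4% of windows).
Fos: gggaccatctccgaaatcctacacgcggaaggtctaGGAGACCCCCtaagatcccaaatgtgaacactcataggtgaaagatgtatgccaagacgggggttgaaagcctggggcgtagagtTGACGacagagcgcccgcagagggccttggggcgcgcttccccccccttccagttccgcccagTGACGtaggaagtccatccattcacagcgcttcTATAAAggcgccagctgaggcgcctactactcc
Fosb and Fosl2 held GCGNGGGCG, letters that EGR proteins bind, found in 4.70% of windows; they are shown, 30 bases each, as the members whose upstream letters name another family of this set. They lie 50 bases before the Fosb start (chr7:19310076-19310105, minus strand) and 79 bases before the Fosl2 start (chr5:32136383-32136412, plus strand), in capitals.
Fosb: tgacgcaagcGCGGGGGCGggtcccggagg
Fosl2: ccggctgcgcGCGGGGGCGgaagggcgcgc
Both have the same 9 letters. Their values with suramin are given next, and a link between letters and values was not tested.

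Fosl1 and Fosl2 encode Fra-1 and Fra-2, Fos proteins without the transactivation domain of c-Fos. Fosl1 (14283, chromosome 19, 5447698 to 5455938, plus strand) stood at 2.57, 4.44 and 5.12 CPM in CON, 12.0, 18.2 and 20.3 CPM in LPS, and 2.77, 6.27 and 5.38 CPM in SUR. The LPS libraries lay above all others, and SUR overlapped CON. Its log2 fold change was 2.06 ± 0.35 for LPS against CON, -1.81 ± 0.34 for SUR against LPS (3.50 times lower) and 0.25 ± 0.36 for SUR against CON. Fosl2 (14284, chromosome 5, 32136472 to 32157840, plus strand) was also highest in LPS, with every SUR library between those of LPS and CON. It stood at 52.8, 65.8 and 59.7 CPM in CON, 146.4, 167.8 and 178.2 CPM in LPS, and 70.4, 70.8 and 74.3 CPM in SUR. The differences were 1.47 ± 0.10, -1.19 ± 0.10 and 0.27 ± 0.10 in the same order. Both SUR against LPS calls held in all 20 alternatives, which again reuse the libraries that chose the genes. Fosl1 overlaps Ccdc85b, whose level was 15.5 ± 2.39, 10.7 ± 1.11 and 13.7 ± 1.62 CPM (SD, n = 3) in CON, LPS and SUR; the counting's use of strand is not given, so reads of the shared stretch cannot be told apart.

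Fosb (14282, chromosome 7, 19302696 to 19310118, minus strand), a close relative of Fos, was the lowest of the 10 genes on the FPKM scale. It stood at 3.74, 4.20 and 3.93 CPM in CON, 6.72, 12.9 and 10.9 CPM in LPS, and 10.6, 11.5 and 8.95 CPM in SUR. Both LPS-treated groups lay above CON, by 1.36 ± 0.23 and 1.39 ± 0.23, and overlapped each other. SUR against LPS was 0.03 ± 0.22, with within-number differences of 0.65, -0.16 and -0.28, so neither direction was shown; without LPS 1 it was -0.20. Its SUR against CON call was the least stable, and was lost in 12 of 20 alternatives, among them each leave-out except that of LPS 1.

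The Jun genes were all higher in LPS than in CON, and in SUR they lay at or below LPS. Jun (16476, chromosome 4, 95049036 to 95052222, minus strand) encodes c-Jun, the Jun protein activated by JNK, and like Junb and Jund it is a gene of 1 exon. It stood at 123, 68.6 and 60.6 CPM in CON, 264, 234 and 284 CPM in LPS, and 222, 173 and 235 CPM in SUR. CON 1 was the highest CON library, at 123 CPM, yet below every LPS library. The log2 fold change was 1.63 ± 0.25 for LPS against CON, with 1.10, 1.77 and 2.23 within numbers, -0.31 ± 0.24 for SUR against LPS, where the libraries overlapped by SUR 3 and LPS 2, and 1.32 ± 0.25 for SUR against CON. Junb (16477, chromosome 8, 84976909 to 84978748, minus strand), the weaker activator of the family and the most abundant gene of the set on the FPKM scale, stood at 381, 216 and 156 CPM in CON, 992, 941 and 950 CPM in LPS, and 628, 578 and 630 CPM in SUR. The 3 groups did not overlap. LPS against CON was 1.94 ± 0.27 and SUR against LPS -0.65 ± 0.26, with within-number differences of -0.66, -0.70 and -0.59. The latter was not called in the fit without a block. It was called with the replicate block (-0.65), without CON 1 (-0.66) and without CON 3 (-0.65), while the value itself hardly moved.

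The windows before Jun (chr4:95052223-95052472, minus strand) and Junb (chr8:84978749-84978998, minus strand) are shown because these were the members most alike in their values over the 9 libraries. Capitals mark TGACATCA, the Jun-type site of Jun (TGANNTCA, in 11.9% of windows and also in Jund), and the TGACG of Junb. A single site can match both of these motifs at once.
Jun: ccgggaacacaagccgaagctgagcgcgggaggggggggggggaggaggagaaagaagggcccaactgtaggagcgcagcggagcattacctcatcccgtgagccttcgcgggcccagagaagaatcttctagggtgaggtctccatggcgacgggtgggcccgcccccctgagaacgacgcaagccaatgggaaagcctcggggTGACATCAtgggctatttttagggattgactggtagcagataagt
Junb: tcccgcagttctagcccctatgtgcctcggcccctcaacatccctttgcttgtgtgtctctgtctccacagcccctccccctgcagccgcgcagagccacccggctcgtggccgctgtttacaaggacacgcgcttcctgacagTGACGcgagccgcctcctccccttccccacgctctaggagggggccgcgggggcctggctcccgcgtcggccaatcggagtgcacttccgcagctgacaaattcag
The windows share none of the searched letters with each other.

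Jund (16478, chromosome 8, 70697739 to 70700616, plus strand), known as the Jun gene with steady expression in resting cells, stood at 118, 152 and 139 CPM in CON, 249.9, 364.5 and 287.8 CPM in LPS, and 142, 209 and 193 CPM in SUR. LPS lay above both other groups, and SUR and CON overlapped. The differences were 1.14 ± 0.18, -0.73 ± 0.18 and 0.41 ± 0.18 for LPS against CON, SUR against LPS and SUR against CON. Within numbers the step from LPS to SUR was -0.81, -0.80 and -0.58. The call of that step was lost without LPS 2 (-0.57), LPS 3 (-0.76), SUR 1 (-0.59) or SUR 3 (-0.78). Jun and Jund each overlap an annotated antisense gene (Junos and Gm11175), for which the table has no row under those symbols. Junb overlaps Prdx2, on the other strand, in the GENCODE M21 annotation. Prdx2 stood at 170 ± 22.6, 147 ± 16.5 and 153 ± 21.1 CPM (SD, n = 3) in CON, LPS and SUR. Reads of both strands cannot be told apart here.

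**Figure D2:**
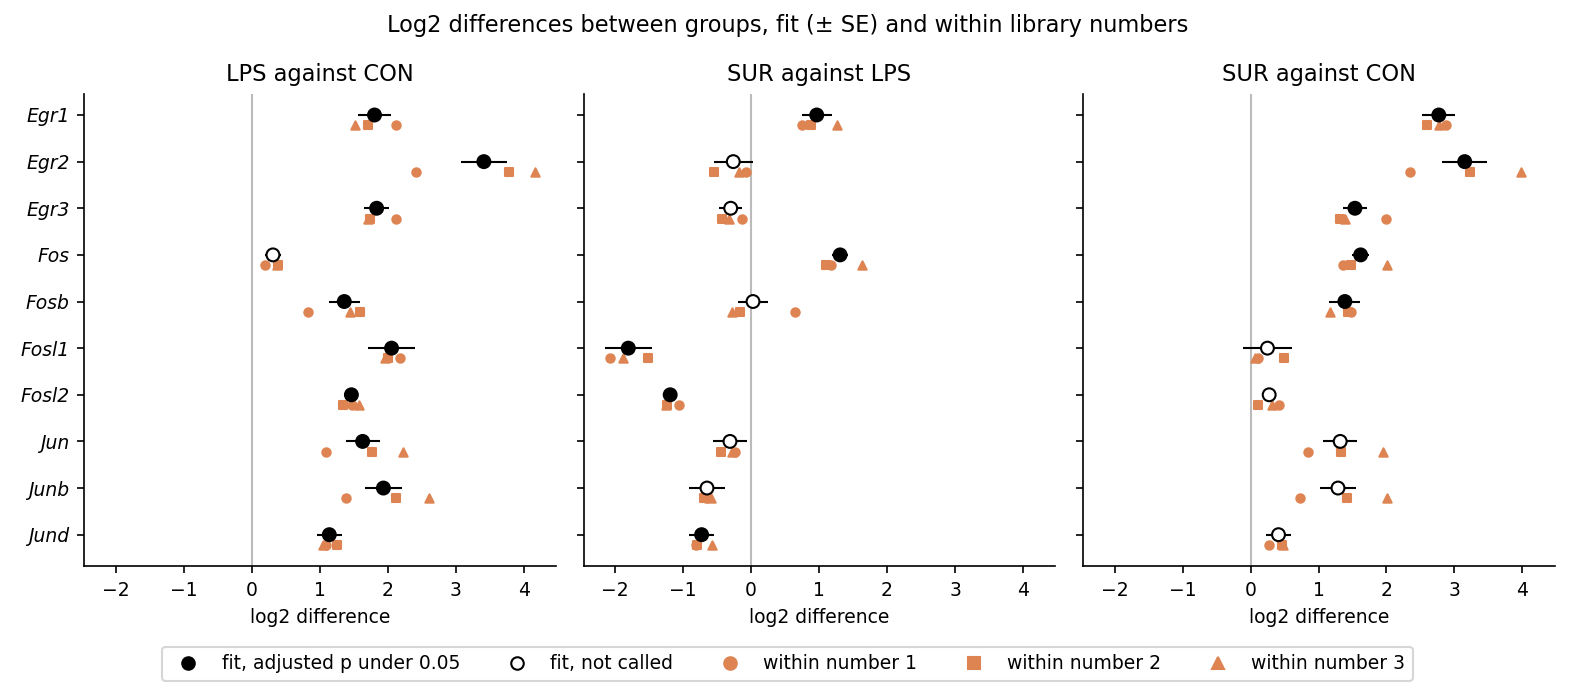
Within-number log2 differences of each gene for LPS against CON (left), SUR against LPS (middle) and SUR against CON (right); small orange points are numbers 1, 2 and 3, and large circles with bars are the fitted log2 fold change ± SE, filled where called. In the middle panel Egr1 and Fos lie above 0 in all 3 numbers, Fosb spans 0, and the other 7 lie below 0 in all 3 numbers.

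Counted over the set, 9 of the 10 genes were called higher in LPS than in CON and 0 lower, against 8.98% of all tested genes called higher and 9.36% called lower; Fos was the exception, and without the libraries numbered 1 all 10 were called. With the replicate number as a block the same 9 were called, where 20.1% and 21.7% of all genes were. In SUR against LPS, 2 were called higher (Egr1, Fos) and 3 lower (Fosl1, Fosl2, Jund), with 9.29% of all tested genes called higher and 7.93% lower. With the replicate block 2 were called higher and 5 lower, with Egr3 and Junb added (2 and 7 with the block and the libraries numbered 1 left out, which also called Egr2 at -0.36 and Jun at -0.37), where the block called 22.6% and 22.7% of all genes. In SUR against CON, 5 were called higher (the 3 EGR genes, Fos and Fosb), with 0.39% of tested genes called higher and 0.0355% lower. The block called 9 of 10 higher, all but Fosl1, with 7.37% of all genes higher and 4.18% lower. The libraries of the groups did not overlap for all 10 genes in LPS against CON, each higher in LPS (15.2% of tested genes higher and 16.8% lower). They did not overlap for 2 genes higher and 4 lower in SUR against LPS (17.8% and 17.2%), and for 8 genes, all higher, in SUR against CON (8.35% and 6.67%). These contrasts chose the genes, so nothing is read from these shares. The split of all calls moved with the scaling: LPS against CON had 1013 higher and 1056 lower, but 765 and 1709 with upper-quartile scaling and 679 and 2040 on the log2(FPKM + 1) scale, and SUR against LPS had 1048 and 895, but 1595 and 616, and 1970 and 518. The FPKM scale moved the median gene by -0.13 and 0.13, while no called difference of the 10 genes changed sign under any scaling. The median log2 fold change of the 10 was 1.72, -0.31 and 1.35 in the 3 comparisons, and that of all tested genes -0.01 in each. By sign alone, all 3 within-number differences were above 0 for 10, 2 and 10 genes, as they were for 30.2%, 33.7% and 23.2% of tested genes, and below 0 for 0, 7 and 0 genes (32.9%, 35.6% and 25.4%). The set described as including several genes higher with suramin thus held 2 such calls, 1 in the EGR family and 1 in the Fos family.

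SUR against CON was the least settled comparison. Its 48 calls among all genes became 168 without CON 1, 0 without CON 2 (884 genes had an unadjusted p under 0.05, and DESeq2 called 259 with all libraries), 4 without CON 3, 32 without LPS 1, 9 without LPS 2, 12 without LPS 3, 28 without SUR 1, 6 without SUR 2 and 5 without SUR 3. Of the 5 calls among the EGR and AP-1 genes, 0 were left without CON 2, 2 without CON 3, and 3 each without LPS 2, SUR 2 or SUR 3. The values themselves moved less: Egr1 kept its log2 fold change at 2.60 or above within each number, and Fos at 1.36 or above.

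Most LPS-raised genes went the other way from Egr1. Of 1004 genes other than these 10 that rose in LPS against CON in edgeR's quasi-likelihood test, 711 (70.8%) fell in SUR against LPS and 293 were not called. In that test 0 rose (2 at an unadjusted p under 0.05), and DESeq2 also called 0 of them higher. Their median in SUR against LPS was -0.48 (quartiles -1.07 and -0.30). Both comparisons use the LPS libraries, and they are not independent of each other. Of all 1013 LPS-raised genes, Egr1 was the one gene also called higher in SUR than in LPS. It was 1 of 19 with the replicate block and 1 of 11 without the libraries numbered 1, where Fos and Map3k8 were among them, and the count was 0 without LPS 2, LPS 3 or SUR 3. Fosl1, Fosl2 and Jund sat with the 711 by their calls, and the other LPS-raised members (Egr2, Egr3, Fosb, Jun and Junb) with the 293.

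**Figure D3:**
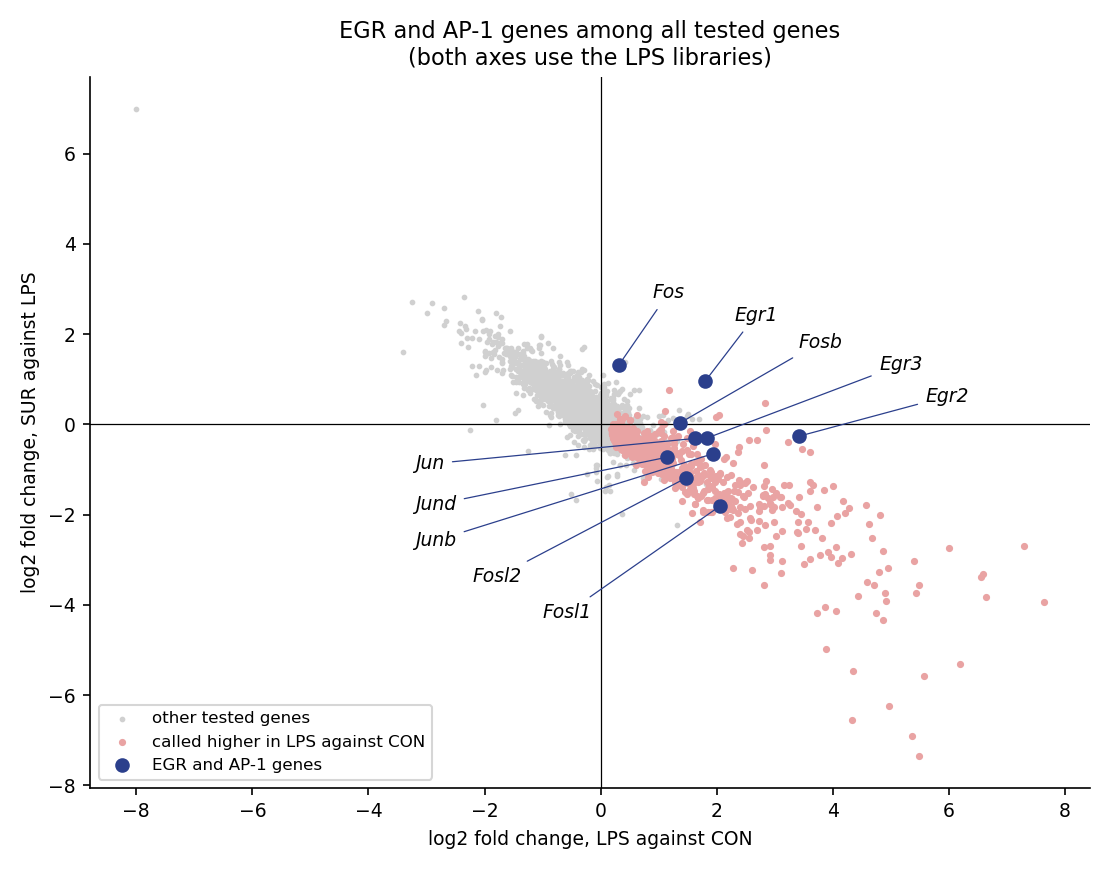
Log2 fold change of SUR against LPS (vertical) on that of LPS against CON (horizontal) for the 11281 tested genes; both axes use the LPS libraries. Pink points were called higher in LPS, and dark points are the 10 EGR and AP-1 genes: Egr1 at 1.81 and 0.96 and Fos at 0.31 and 1.31 lie above the cloud, and Fosl1 at 2.06 and -1.81 within it.

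Levels were compared between genes only on the FPKM scale, which corrects for transcript length. Junb was the most abundant in every group, at 165 ± 77.3 FPKM in CON, 573 ± 23.8 in LPS and 403 ± 22.5 in SUR (SD, n = 3), and its libraries did not overlap those of the next gene. Jund (53.9 ± 6.60) and Jun (29.8 ± 12.1) followed in CON; in LPS and SUR these overlapped each other. Fosb was lowest in all groups, at 1.18 ± 0.06, 2.74 ± 0.83 and 3.06 ± 0.38 FPKM, overlapping Fosl1 in SUR. Fos and Fosl2 changed place most, by 4 places each from LPS to SUR. Fos ranked 4 in CON, 8 in LPS and 4 in SUR. In CON it overlapped Fosl2 below it, at 12.8 ± 1.59 and 11.0 ± 1.15 FPKM. In LPS it overlapped Egr1 above it and Fosl1 below it, and in SUR, at 39.6 ± 4.43 FPKM, it was clear of Jund above and Egr1 below. Fosl2 moved from place 5 to 4 to 8, overlapping Egr2 in LPS. In SUR it was clear of Egr3 above (16.3 ± 0.95) and of Fosl1 below, at 13.2 ± 0.37 FPKM. Egr1 was in place 7 in CON and LPS, next to Egr3 with overlap in both, and in place 5 in SUR, where it overlapped Egr2. Egr2 and Fosl1 overlapped in places 9 and 8 of CON.

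The summed Fos family level overlapped between LPS and SUR, while its makeup differed. Summed FPKM of the 4 Fos genes was 27.9 ± 1.48 in CON, 55.7 ± 5.33 in LPS and 59.3 ± 4.93 in SUR, where LPS and SUR overlapped. Fos itself made up 46.1% ± 6.05 of it in CON, 26.2% ± 4.01 in LPS and 66.6% ± 2.46 in SUR (SD, n = 3), and none of the groups overlapped. Fosl2 made up 39.3%, 49.4% and 22.4%, and Fosl1 10.4%, 19.5% and 5.79%. In LPS, Fosl2 thus held the largest share, 47.6% to 50.6%, and in SUR Fos did, 64.0% to 68.9%. Fosb stayed between 3.71% and 5.92% in all libraries. Shares by TPM were the same to within the SD. These are mRNA shares, and protein was not measured. The TMM scaling of the CPM was not applied to summed FPKM, here or for the EGR and Jun families. On the log2(FPKM + 1) scale the median gene moved by -0.13 in LPS against CON and 0.13 in SUR against LPS. Small differences between group totals are therefore not read.

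The EGR and Jun families differed from the Fos family. Summed EGR FPKM was 13.0 ± 1.01 in CON, 59.5 ± 6.39 in LPS and 72.1 ± 14.0 in SUR, and LPS and SUR overlapped. Egr2 held the largest share in LPS (44.5% ± 6.41) and Egr1 in SUR (43.3% ± 4.54, against 24.8% ± 7.99 in LPS), while in CON Egr3 had 43.4% ± 11.2. Summed Jun FPKM was 249 ± 83.8, 765 ± 10.2 and 549 ± 26.8, and the 3 groups did not overlap. Junb made up 64.5% ± 8.32, 74.9% ± 2.13 and 73.4% ± 1.72 of it, so the makeup of the Jun family in SUR was near that in LPS, with ranges that overlapped. The Jun total was above the Fos total in every library, by FPKM.

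**Figure D4:**
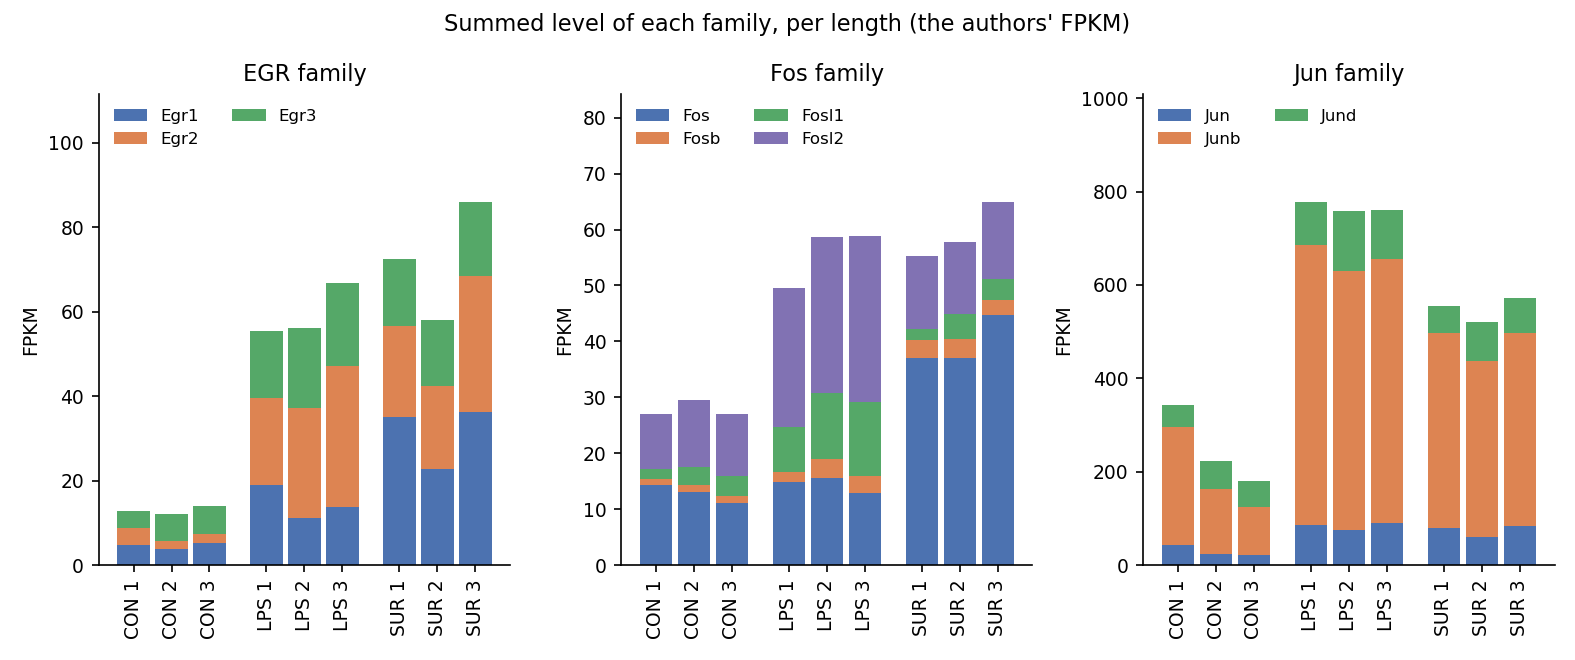
Summed FPKM of the EGR, Fos and Jun families in each library, as bars stacked by member (axes from 0, with a range for each family). Fos holds 22.1% to 30.1% of its family in LPS and 64.0% to 68.9% in SUR, and the Jun family is mostly Junb in all 9 libraries.

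The replicate number offered a comparison that the choice of genes had not used. The labels do not say what a number stands for, and this test was added after values were seen. In the fit with the number as a block, edgeR's quasi-likelihood test called 52.9% of all tested genes between libraries numbered 1 and those numbered 2 and 3 (27.1% higher, 25.8% lower in number 1), so 5 calls among the 10 genes are near that background. Fosl1 differed most, 0.81 ± 0.11 lower on the log2 scale in number 1 (adjusted p = 0.000125, lower in 3 of 3 groups). Jund was 0.39 ± 0.05 lower (adjusted p = 5.75e-05, 3 of 3 groups), and Egr3 and Fosl2 were lower by 0.31 and 0.18 (adjusted p = 0.00933 and 0.0119). Egr1 was 0.34 ± 0.08 higher (adjusted p = 0.00536), above the mean of numbers 2 and 3 in 3 of 3 groups. It was below number 3 in CON (12.7 and 14.4 CPM) and in SUR (93.8 and 99.0 CPM). These p-values rest on how alike the difference was over the groups. They do not measure how far numbers vary, as number 1 is a single number. Egr2, Fos, Fosb, Jun and Junb were not called. For Egr2, Jun and Junb the number 1 library stood apart mainly in CON: CON 1 lay above the mean of CON 2 and CON 3 by 1.02, 0.93 and 1.05 log2 units, and the same gap was -0.53, 0.03 and 0.07 in LPS and -0.25, 0.14 and 0.06 in SUR. That difference between groups was not tested. Within number 1 these genes had their smallest LPS against CON difference.

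For each gene, the 4 other genes with the smallest root mean square difference in centred log2 CPM over the 9 libraries are named, a description in which the group means weigh most. Nearest to Fos was Map3k8, the kinase Tpl2 that carries TLR4 signals to ERK, at 0.27 log2 units, followed by Nuak2, Trp53inp1 and Ier2. Map3k8 stood at 8.41, 4.87 and 3.99 CPM in CON, 7.48, 6.94 and 8.58 CPM in LPS, and 15.7, 21.5 and 22.3 CPM in SUR, with every SUR library above all others, as for Fos. Egr1 had no near neighbour: Zfp36, an mRNA decay factor, was closest at 0.58, then Tagap, Irf1 and Ier2. Egr2 lay nearest Socs3 (0.21), then Btg2, Dusp2 and Cd69, and Egr3 nearest Nr4a2 (0.23), then Fosb, Gpr132 and Ier2. Fosb lay nearest Spata13 (0.29), then Cd274, Ier2 and Bcl3. Ier2, itself an immediate-early gene, was among the 4 nearest of Egr1, Egr3, Fos and Fosb.

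Of the genes at a lower mean in SUR than in LPS, Fosl2 lay nearest Plk3 (0.07), then Ago3, Ctsc and Rhbdf2, and Fosl1 nearest Calcrl (0.26), then Src, Stk40 and Slc7a2. Jund lay nearest Rgcc (0.13), then Snx20, Tnfrsf1b and Apobr. Jun and Junb were in each other's 4, at 0.20; Jun was nearest Pnrc1 (0.12), then D17H6S56E-5, Junb and Ccnl1, and Junb nearest Jun, then Ptger4, Pnrc1 and Zbtb10. None of the Fos genes was among the 4 nearest of another Fos gene.

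Of 15 tested AP-1 partner bZIP genes, 9 rose and 1 fell in LPS against CON, and 1 rose and 5 fell in SUR against LPS (2 and 8 with the block). Of all tested genes, 8.98% rose and 9.36% fell in LPS against CON, and 9.29% and 7.93% in SUR against LPS. With the block these shares were 20.1% and 21.7%, and 22.6% and 22.7%. In SUR against CON, 0.39% rose and 0.0355% fell (7.37% and 4.18% with the block). In that comparison 1041 of 11281 genes had an unadjusted p under 0.05, and DESeq2 called 259. The counts of this and the following lists stand beside these shares. A list with no call in SUR against CON is thus near its share. Of the bZIP genes, none was called in SUR against CON in edgeR's quasi-likelihood test (7 at an unadjusted p under 0.05, 7 with the block, 4 by DESeq2). The list's medians were 0.33, -0.30 and 0.13. Atf3, a bZIP repressor that pairs with Jun proteins, rose by 2.81 ± 0.28 (adjusted p = 0.000207), from 163 ± 64.4 to 1144 ± 157 CPM (SD, n = 3), and fell by 2.71 ± 0.28 in SUR, to 175 ± 36.7 CPM. Maff, a small Maf protein, rose by 3.73 and fell by 1.83, a fall that was not called without LPS 2 (-1.82), LPS 3 (-1.80), SUR 2 (-1.76) or SUR 3 (-1.98). Nfe2l2, the NRF2 gene, rose by 1.44 and fell by 0.99, and Jdp2, a Jun dimerization protein, rose by 1.28 and fell by 1.23 (its fall was not called without LPS 2 or LPS 3, and ranged from -1.52 to -0.96 over the alternatives).

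Of the 5 tested EGR relatives and NAB corepressors, 2 rose and 1 fell in LPS, and 1 rose and 1 fell in SUR against LPS (2 and 2 with the block). Nab1, which encodes a corepressor of EGR proteins, rose by 0.60 ± 0.08 (adjusted p = 0.00124) and fell by 0.51 ± 0.08 in SUR. Sp3, a zinc finger factor for GC-rich sites, fell by 0.72 ± 0.06 and rose by 0.81 ± 0.06 in SUR. The fourth EGR gene, Egr4, outside the rule for named genes and named after its values were seen, rose from 0.418 ± 0.158 to 2.06 ± 0.171 CPM. None of the 5 was called in SUR against CON by edgeR (2 at an unadjusted p under 0.05, 2 with the block, 0 by DESeq2). Of 11 genes for SRF, its TCF and MRTF cofactors and CREB factors, 1 rose and 1 fell in LPS (3 and 1 with the block), with Srf up by 0.66 ± 0.10 and Ep300, a coactivator of CREB, down by 0.39 ± 0.06. Both went the other way in SUR against LPS, Srf by -0.60 and Ep300 by 0.50, and none of the list was called in SUR against CON by edgeR, at an unadjusted p under 0.05, with the block or by DESeq2.

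Of 25 genes for ERK, JNK, p38 and upstream kinases, most did not pass the test without a block at the mRNA level. In that fit 3 rose and 1 fell in LPS (8 and 4 with the block), and 1 rose and 2 fell in SUR against LPS (6 and 10 with the block). Counting both directions, the 4 and 3 of 25 called without the block were no larger a share than over all tested genes (8.98% higher and 9.36% lower, and 9.29% and 7.93%). With the block, the 8 that rose in LPS and the 10 that fell in SUR were larger shares than 20.1% and 22.7% of all genes. The 4 that fell in LPS were a smaller share than 21.7%, and the 6 that rose in SUR were near 22.6%. Map3k8 was the riser in SUR, by 1.37 ± 0.26 (adjusted p = 0.00697), and it was also the list's single call in SUR against CON, 1.78 ± 0.26 (adjusted p = 0.0375; lost in 7 of the 9 settings that leave out 1 library). Braf and Mapk8 rose by 0.31 and 0.37 in LPS and Hras fell by 0.22, while Map2k4 fell by 0.19 in SUR; the calls of Mapk8, Hras and Map2k4 were lost in 4, 9 and 7 of the 9 settings that leave out 1 library. Mapkapk2, the p38 target MK2, rose by 1.83 ± 0.10 in LPS and fell by 1.68 ± 0.10 in SUR. The list of ERK pathway feedback genes holds phosphatases and other dampers that ERK itself induces, together with downstream genes such as Ccnd1. Its members moved in both directions. Of 12 tested, 6 rose and 2 fell in LPS, and 2 rose and 7 fell in SUR. Those that fell in LPS and rose in SUR were the same 2 genes, Dusp6 and Ccnd1. Ccnd1, the cyclin D1 gene, named after its values were seen, fell by 0.60 and rose by 0.44. Dusp6, the ERK phosphatase, fell by 2.28 ± 0.24 in LPS (adjusted p = 0.000311) and rose by 1.72 ± 0.24 in SUR (adjusted p = 0.00180). Its libraries read 58.4, 55.5 and 63.6 CPM in CON, 15.1, 12.7 and 8.71 in LPS, and 54.3, 34.4 and 31.6 in SUR. Dusp4 and Dusp5 rose by 1.85 and 2.53 and fell by 1.43 and 1.53. Phlda1 rose by 4.28 in LPS and fell by 1.86 in SUR, and at 2.42 it was the list's one call in SUR against CON (7 with the block), lost in 3 of the 9 settings that leave out 1 library.

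Among the lists, other immediate-early genes had the most calls in SUR against CON. Of 20 tested, 13 rose and 1 fell in LPS, 2 rose and 8 fell in SUR against LPS, and 10 rose and 0 fell in SUR against CON (16 and 1 with the block), with medians of 1.32, -0.37 and 0.95. Over all tested genes, 0.39% rose and 0.0355% fell in SUR against CON (7.37% and 4.18% with the block). In SUR against CON, Zfp36 was up by 2.24, Sgk1, a kinase gene, by 1.53, Nr4a2, an orphan nuclear receptor gene, by 1.44 and Ier2 by 1.41 (adjusted p = 0.0495, 0.0393, 0.0213 and 0.0117). Over the 9 settings that leave out 1 library, the calls of Zfp36 and Sgk1 were lost in 8 each, that of Nr4a2 in 5 and that of Ier2 in 2. Csrnp1 and Klf6 rose by 4.06 and 2.40 in LPS and fell by 2.72 and 1.35 in SUR. Btg2 rose by 3.22 in LPS, and Ier5l, at 2.31 CPM in LPS and 5.64 CPM in SUR, rose by 1.29 in SUR.

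Genes described as AP-1 or EGR targets include cytokine, protease and adhesion genes. Of 20 tested, 14 rose and 0 fell in LPS, 1 rose and 10 fell in SUR against LPS (1 and 16 with the block), and none was called in SUR against CON by edgeR (9 at an unadjusted p under 0.05, 4 by DESeq2, and 11 rose with the block), with medians of 1.72, -0.97 and 0.58. Il1b, the interleukin-1 beta gene, rose by 6.58 ± 0.78 (adjusted p = 0.000534) and fell by 3.32 ± 0.62 (adjusted p = 0.00654; not called on the log2(FPKM + 0.1) scale). Lif rose by 5.40 and fell by 3.02. Mmp13 fell by 2.37 in SUR, a fall that was not called without SUR 2 or SUR 3, with a range of -2.87 to -1.89 over the alternatives. Ptgs2 and Tnf rose by 4.63 and 3.60 in LPS, and the Tnf call was lost without CON 2 (3.30). DESeq2 gave Tnf 3.61 ± 0.81 but no adjusted p, so Tnf could be neither called nor left uncalled there. Of 11 SRF and MRTF cytoskeletal targets, 4 rose and 1 fell in LPS (9 and 1 with the block), and 1 rose and 3 fell in SUR (1 and 9 with the block). Of these cytoskeletal genes, edgeR called 0 in SUR against CON (2 at an unadjusted p under 0.05, 0 by DESeq2, 3 with the block). Tpm4, a tropomyosin gene, rose by 0.71 and fell by 0.89, and Filip1l rose by 1.52. Actg1 and Vcl rose by 0.73 and 0.77 and fell by 0.74 and 1.03, and Fhl3 rose by 0.60 in SUR; of these 5 calls only the fall of Vcl held in all 9 settings that leave out 1 library. Of 9 heat shock genes, 3 rose in LPS, and 0 rose and 2 fell in SUR (5 fell with the block). Of the heat shock genes, edgeR called 0 in SUR against CON (2 at an unadjusted p under 0.05, 2 by DESeq2, 2 with the block). Hspa1a and Hspa1b rose by 3.27 and 3.25 in LPS. Hspa1a fell by 1.79 in SUR, not called without LPS 2 or LPS 3 (range -2.11 to -1.35 over the alternatives). Hsp90aa1 rose by 0.33 and fell by 0.39, calls lost in 6 and 4 of the 9 settings. Of 11 tested macrophage markers, 2 rose in LPS and 2 fell in SUR, Cd14 by 2.94 and then 1.79, and Csf1r by 0.31 and then 0.23 (its fall was not called in 7 of the 9 settings).

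**Figure D5:**
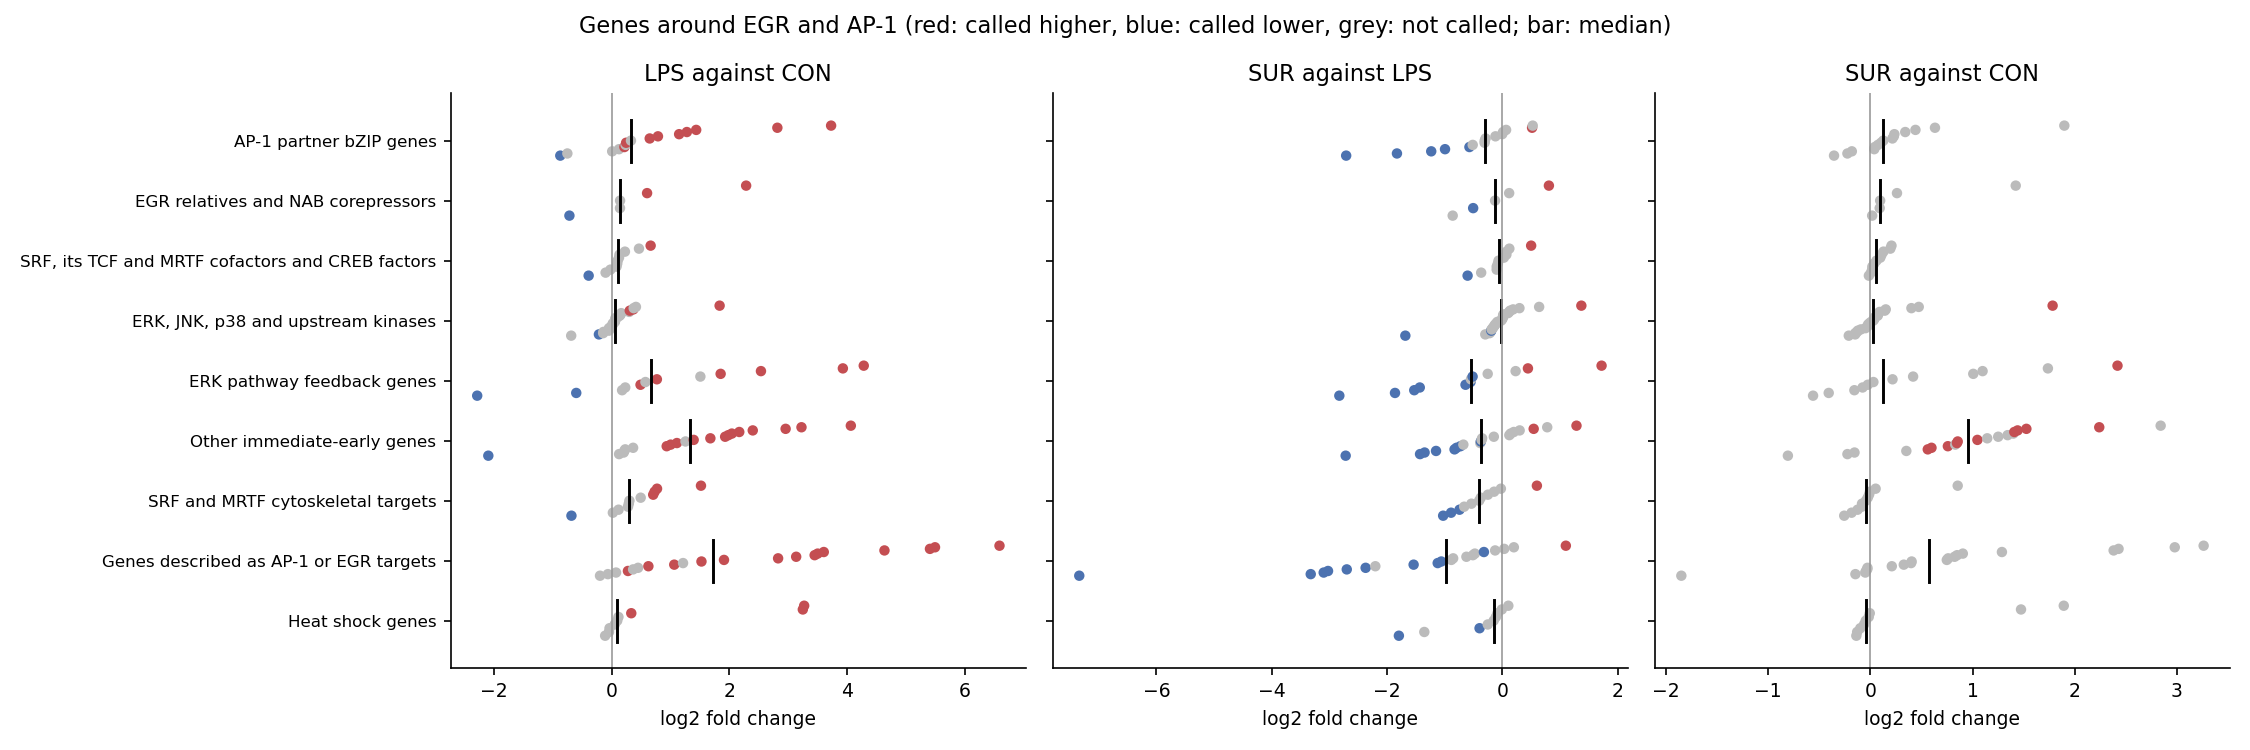
Log2 fold change of every tested gene of each list (points) with the list median (black bar), for LPS against CON, SUR against LPS and SUR against CON; red points were called higher, blue lower and grey not called, and each panel has its own horizontal range. Other immediate-early genes have medians of 1.32, -0.37 and 0.95, and the kinases lie close to 0 with a few calls.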

How the data were processed

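Per the labels' protocols, Trizol-extracted RNA of the MH-S cells went into 9 libraries built with an MGIEasy kit. The authors aligned reads with HISAT2 2.0.4 to GRCm38 (mm10), per the submitters' processing notes. How reads were counted, with which annotation and whether by strand, is not given in the sources used here. Expected counts, as deposited (estimated reads per gene, 93.4% whole numbers) were rounded to whole numbers. The deposited FPKM are scaled by the authors for length and depth, per the file headers, and gave levels compared between genes. The deposited TPM summed to between 999999 and 1000001 per library and repeated the family shares. The authors' deposited log2 fold changes and p-values or q-values were not used.

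Genes kept by filterByExpr were scaled by TMM (factors 0.934 to 1.04) and tested in R 4.3.3 with edgeR 4.0.16 (glmQLFit, glmQLFTest) in a single fit of all 9 libraries by group, without covariates; p-values were adjusted by Benjamini-Hochberg over 11281 genes, and the steps were tested on simulated data. Standard errors were derived from F. Alternatives were RLE and upper-quartile scaling, no filter, only the compared groups, each library left out, the replicate number as a block, DESeq2 1.42.0, limma 3.58.1 (voom), and limma on log2(FPKM + 1) or log2(FPKM + 0.1). Same-numbered libraries deviated together: the 9 correlations of their deviations from group means ran from 0.435 to 0.801. The numbers were therefore taken as pairs for the within-number differences and the block, although the labels do not say what a number is. The main fit, which gave the calls and standard errors unless stated, did not use this pairing.

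The 10 genes and the 13 gene lists were chosen with earlier results of these data known. All 10 genes are named; of each list, up to 4 called genes per comparison with the largest change and an average log2 CPM at or above 2; and for likeness the 4 nearest genes with at least 0.5 times the member's SD. A gene that this rule selects is not reported here. Promoter windows, coordinates and gene spans are RefSeq's for GRCm38, with 7 of 10 genes matched to a window; overlaps are from GENCODE M21. Figures used matplotlib 3.10.9 in Python 3.11.15.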

Additional observations from a re-analysis of the deposited data

How the results depend on the processing

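Of the 200 values per comparison that the 10 genes gave over 20 alternatives, 198 kept their direction and side of the threshold for LPS against CON, 177 for SUR against LPS and 162 for SUR against CON. Fosb alone changed sign, in SUR against LPS: -0.231 without the libraries numbered 1, -0.234 with the block and those libraries left out (chosen after seeing the data), -0.201 without LPS 1, -0.00230 without SUR 1 and -0.0730 without SUR 2, with up to 0.235 (without LPS 2) in the other leave-outs. All genes called in LPS against CON were 2069, and 4714 with the replicate block, 3415 without the libraries numbered 1, 4417 with the block and those left out, and 1379 to 2075 with 1 library left out. In SUR against LPS they were 1943, and 5109, 3391, 4564 and 1208 (without SUR 2) to 2054 in the same order, with 1255 without SUR 3. In SUR against CON they were 48, and 1302, 587, 1266 and 0 to 168, with 4 from the compared groups alone and 259 by DESeq2. Of the 10 genes, 9 were called in LPS against CON in every leave-out of 1 library, and 10 without the libraries numbered 1, with or without the block. In SUR against LPS 5 were called, 9 with the block and libraries numbered 1 left out (Egr2 and Jun added to the 7 called without those libraries), and 3 to 6 in the leave-outs. In SUR against CON 5 were called, 9 with the replicate block, 8 without the libraries numbered 1, 9 with both, 2 from the compared groups alone, and 0 to 6 in the leave-outs. The pairing by replicate number changed no call of the 10 genes besides those given in the report. The cause of these differences was not tested; settings with fewer libraries have fewer degrees of freedom. With 1 time point and 3 libraries per group, no time course was measured.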
